A study of Mus musculus with 14 samples.

Results

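L1 elements are the retrotransposons of the LINE class that still move in the mouse genome. The elements described here are every listed copy of the L1 family other than the repeat HAL1-3A_ME. They were chosen by name, as LINE class and L1 family in the deposited tables of RNA over repeat elements, and the measured level played no part in the choice. The MVH IP table lists 16666 of them among 94297 elements of all kinds, and the round spermatid table lists 6710 among 47338. Both tables list 1501, which leaves 15165 in the MVH IP table only and 5209 in the round spermatid table only, or 21875 different elements in all. The shared ones are 9.01% of the L1 elements in MVH IP and 22.4% of those in round spermatids, against 12.8% and 25.5% for all listed elements. All listed elements include HAL1-3A_ME, which supplied 1747 of the 12057 elements in both tables.

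The study sequenced RNA from testes of C57BL/6 mice at least 6 weeks old, at steps of a purification of chromatoid bodies, the large germ granules that sit beside the nucleus of round spermatids. MVH IP stands for 3 libraries of formaldehyde-crosslinked testis cells, sonicated, pelleted and immunoprecipitated with an antibody against MVH, the germ cell helicase encoded by Ddx4. Round spermatids stand for 2 libraries of sorted cells, 1 of them from RNA above 500 bp. The labels name no mutation, treatment or pooling for these groups, and both share strain, age and a library method with not-so-random primers. A lysate library of the whole testis has an element table too, in a unit that could not be settled, and it is used here only for which elements it lists. Values of the IgG and ACR precipitates over L1 were not analysed here, so RNA brought down by the antibody and RNA carried over cannot be told apart.

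A full L1 element carries an internal promoter and 2 open reading frames, ORF1 for an RNA-binding protein and ORF2 for an endonuclease and reverse transcriptase, and copies itself through an RNA intermediate. Most copies are cut short at their 5′ end and cannot move. Male germ cells silence L1 by DNA methylation and by Piwi proteins guided by piRNAs, and several of these proteins gather in germ granules such as the chromatoid body. Names follow age: L1Md, L1_Mm and L1_Mus belong to the mouse lineage, with L1Md_A, L1Md_T and L1Md_Gf known to hold active copies. Lx, L1_Mur and L1_Rod are older elements of the rodent lineage, the many L1M names are older still and shared among mammals, and HAL1 elements are half-L1s that have ORF1 without ORF2.

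Each table gives 1 value per element in FPKM (fragments per kilobase of element, scaled to the mapped fragments), pooled by the authors over the libraries of the group. There is thus no standard deviation, n or test for any value or difference below, and the depth behind them is unknown. Both tables start at 5 FPKM (lowest L1 values 5.00 and 5.00), so an element missing from one is below that floor or unlisted. The tables were scaled apart from each other. Where a pair of values is given without names, MVH IP comes first and round spermatids second. In the separate gene tables, all 8 round spermatid markers were listed for both, such as Tnp1, a transition protein of condensing chromatin, at 14304 FPKM in MVH IP against 3459 in the sorted cells. Of 7 Sertoli and 6 Leydig cell markers 0 were listed in round spermatids. In MVH IP 3 of the 7 and 5 of the 6 were listed, with summed levels of 177 and 116 FPKM, and 4 of 6 spermatocyte markers summed to 306 FPKM against 42.5 for 4 of 6 in round spermatids. The Sertoli markers listed in MVH IP were Wt1 at 12.9 FPKM, Clu at 96.9 and Ctsl at 66.9, and Sox9, Rhox5, Amh and Gata4 were in neither table. The part of these other cells in the L1 values of MVH IP was not tested.

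The typical L1 element was low in both tables. In MVH IP the median was 15.1 FPKM with quartiles at 8.05 and 40.9, and 34.7% of elements were under 10 FPKM. In round spermatids the median was 10.8 FPKM with quartiles at 7.03 and 22.2, and 46.1% were under 10 FPKM. High values were rarer in round spermatids: 2118 elements (12.7%) were at 100 FPKM or more in MVH IP against 256 (3.82%), and 240 against 10 were at 1000 or more. Shares of all listed elements at these levels are not given here, so the counts are not read as a trait of L1. Elements of any kind in both tables were also higher in MVH IP, at a median of 5.38-fold on the FPKM + 1 scale. The 10 highest elements held 22.5% of the summed L1 FPKM for MVH IP against 9.60% for round spermatids. L1 made up 17.7% of all listed elements in MVH IP and 14.2% in round spermatids. The medians of all listed elements, 17.8 and 12.0 FPKM, lay slightly above those of L1. In a bulk sample, fewer cells of a type and less RNA per cell cannot be told apart.

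The rodent lineage supplied more listed elements than any other name group in both tables. It held 8776 elements in MVH IP (52.7%) and 3713 in round spermatids (55.3%), with medians of 15.2 and 10.9 FPKM. The older mammalian names held 5284 (31.7%) and 2176 (32.4%), with medians of 16.4 and 11.0 FPKM. The mouse lineage held 1984 (11.9%) and 500 (7.45%), at 11.4 and 9.64 FPKM, so its share was larger in MVH IP while its median level was below those of the rodent and older mammalian groups in both tables. HAL1 elements numbered 399 and 247, with medians of 23.9 and 10.3 FPKM. The MVH IP value rests on 1 repeat name, HAL1-2a_MD, whose 207 elements had a median of 41.1 FPKM, while HAL1, HAL1b and MusHAL1 had 14.4, 14.5 and 15.2, below the older mammalian names. L1P names, shared with primate subfamilies, had 11 and 4 elements and none in both tables, and other names, mainly L1VL, had 212 and 70.

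**Figure D1:**
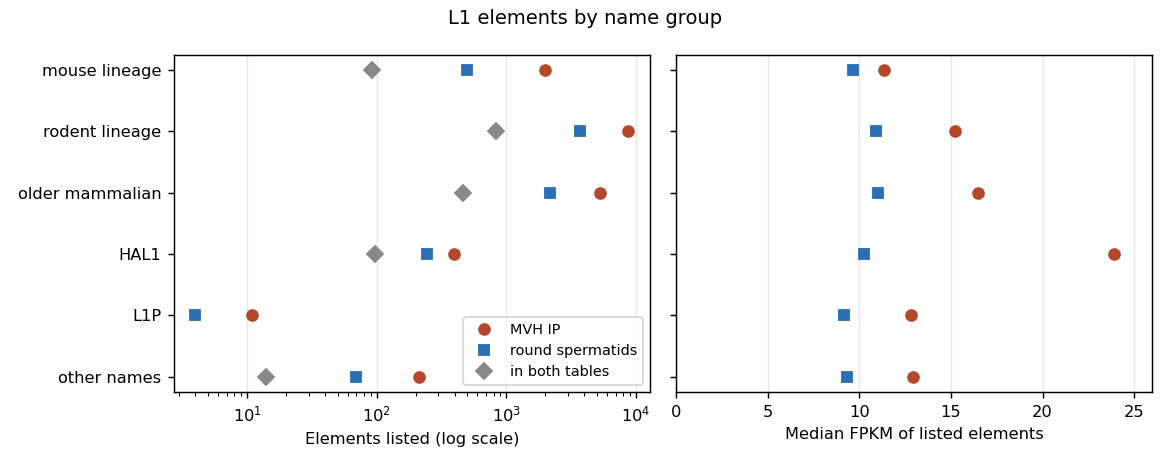
The left panel plots, on a log axis, the number of L1 elements of each name group listed for MVH IP (circles), for round spermatids (squares) and in both tables (diamonds). The right panel plots the median FPKM of the listed elements, which lies above that of round spermatids in MVH IP for each of the 6 groups, with HAL1 at 23.9 against 10.3 FPKM, a group led by HAL1-2a_MD at 41.1 against 10.3.

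Among single repeat names, the Lx elements led. Lx8 had 1778 listed elements in MVH IP and 671 in round spermatids, at medians of 15.5 and 10.1 FPKM. Lx9 had 1501 and 771, at 17.6 and 11.4 FPKM. Lx7 had 1003 and 426, Lx6 733 and 304, Lx5 606 and 248, and L1_Mur3 514 and 240. All of these are rodent-lineage repeats. The medians of the last 4 names lay between 14.1 and 16.0 FPKM in MVH IP, and between 10.4 and 12.0 in round spermatids, so the leading names differed in number far more than in level. MVH IP had 108 repeat names and round spermatids 107.

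Most listed L1 elements were short pieces. The median length was 245.5 bases for MVH IP against 134 for round spermatids. The medians of all listed elements were shorter, at 166 and 120 bases, so shortness was not particular to L1. Of the L1 elements, 61.5% and 76.3% were shorter than 350 bases, the lower end of the gel range (350 to 500 bp) from which the libraries were cut. Listed levels were lower in the longer of the short classes: in MVH IP the median was 270.1 FPKM for elements up to 50 bases, 41.6 for 51 to 100 bases, 18.2 for over 100 to 200 bases and 11.8 for over 200 to 500 bases. In round spermatids the same classes were at 23.6, 17.4, 9.16 and 9.17 FPKM. Above 200 bases the class medians stayed between 11.8 and 12.1 FPKM in MVH IP, and between 9.17 and 11.6 in round spermatids. The rank correlation of FPKM and length across L1 elements was -0.26 in MVH IP and -0.19 in round spermatids. Over all listed elements it was -0.31 and -0.32. These are given as a description, since FPKM is itself divided by length and the floor cuts both lists.

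**Figure D2:**
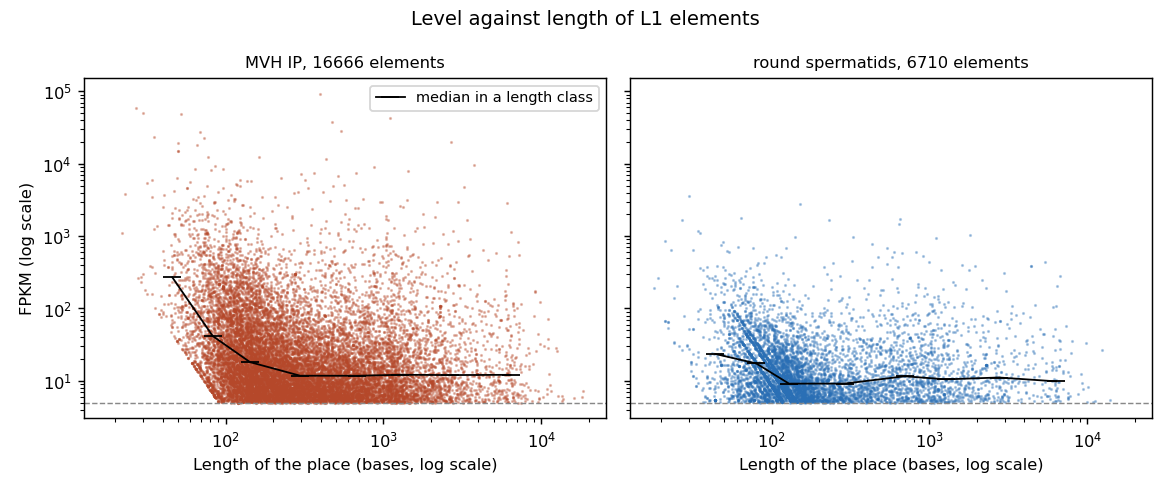
Each point is 1 L1 element, with the length of its place in bases against its FPKM, both on log axes, for MVH IP (left, 16666 elements) and round spermatids (right, 6710 elements). The dashed line is the floor of 5 FPKM, and the black line joins the medians of 8 length classes, which drop from 270.1 to 11.8 FPKM in MVH IP over the first 4 classes.

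Low values repeated exactly among elements of the same length. In round spermatids 343 elements of any kind were 100 bases long, and 57 of them were at 8.55 FPKM, 53 at 13.4 and 26 at 16.3, of which 6, 7 and 7 were L1. A further 13 were at 17.1 FPKM, which is 2 times 8.55. In MVH IP 334 elements were 80 bases long, of which 23 were at 7.52 FPKM and 8 at 15.03, again 2 times the first. Of the L1 elements, 20.5% in MVH IP and 37.1% in round spermatids had a value that recurred at their own length (equal in every deposited digit). The share was 49.6% and 63.2% up to 100 bases, and 5.35% and 1.29% over 200 bases. The depth of the libraries was not recovered from these steps, because no source used here gives the effective length behind each value.

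By place, nearly all of these L1 elements lay outside annotated genes. In the mm9 genome build, 207 of the 16666 in MVH IP (1.24%) and 101 of the 6710 in round spermatids (1.51%) overlapped the span of a gene of the joint gene table by 1 base or more. The shares for all listed elements were 1.25% and 1.75%. None of the L1 elements, 0 of 16666 and 0 of 6710, overlapped any of the 197 piRNA clusters of the joint table, the long loci whose transcripts are cut into piRNAs, against 0 and 1 of all listed elements. No source used here says whether the authors took out elements inside genes and clusters before deposit. Exons and introns could not be told apart, since no annotation of that build was used. Of the joint gene spans, 3309 share their place with another feature, so a span can exceed its gene. The median distance to the nearest gene was 96262 bases in MVH IP and 73295 in round spermatids, measured for 16662 and 6710 elements on sequences that carry a gene, and 62.0% and 56.3% of them lay more than 50000 bases from any gene. Distances of all listed elements are not given here, so those of L1 are not read as a trait of L1. Within 5000 bases of a gene, without overlap, lay 233 and 1085 elements in MVH IP (up to 1000 bases, and beyond that) and 154 and 608 in round spermatids. The class medians differed little with that distance. The MVH IP medians were 17.8 FPKM up to 1000 bases and 14.5 beyond 50000, and those of round spermatids 12.9 and 10.7.

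Transcripts that the authors assembled without a gene name overlapped 154 L1 elements in MVH IP (0.924%) and 181 in round spermatids (2.70%), at median levels of 30.3 and 12.9 FPKM. The shares for all listed elements were higher, 1.41% and 4.06%, at medians of 56.2 and 16.1 FPKM. Of the few elements inside genes, Lx at chr7:69006612-69007652, in A230057D06Rik, was the highest in MVH IP at 1888 FPKM. An L1ME1 in Ppp1r13b (chr12:113111677-113112432) was at 1484 FPKM, while the gene itself was listed at 22.4 FPKM in MVH IP against 13.4 in round spermatids. In round spermatids an L1MB3 at chr7:6766045-6766681, overlapping Mir3099, was at 375 FPKM. An Lx4B in 4921510H08Rik (chr10:97178609-97178764) was at 112 FPKM in round spermatids, near the 124 FPKM of its gene, and the same gene was at 436 FPKM in MVH IP. The other genes, A230057D06Rik and Mir3099, had no listed value to set beside their elements. Reads of an element and its gene cannot be told apart without strand. The 4 were picked from the highest in each table after their values were seen.

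The highest L1 values in MVH IP were mostly on short fragments. Most of the 10 highest also lay more than 50000 bases from any gene, as did 62.0% of the L1 elements in MVH IP. Of the elements beyond that distance, 12.0% were at 100 FPKM or more, the lowest share of the distance classes. Distance from genes was thus not a mark of the high values. L1MB1, an older mammalian element at chr8:88692121-88692516, was at 92299 FPKM and was not listed in round spermatids. It lies 107.6 kb from Phkb, a subunit gene of phosphorylase kinase. Lx9 at chr8:50151949-50151975, only 27 bases long, was at 58930.5 FPKM in MVH IP against 1664 in round spermatids. Lx9 at chr1:66139377-66139406, 30 bases long and 82.5 kb from Mtap2, was at 50796 and 3619 FPKM, the highest L1 value in round spermatids. These 2 Lx9 fragments were among the 10 highest in both tables, as was Lx7 at chr1:147109507-147109541, 35 bases long, at 23694 and 1090 FPKM.

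The other 6 of the 10 highest in MVH IP were also listed in round spermatids, at lower ranks. L1MC5 at chr8:12463981-12464032 was at 47898 FPKM in MVH IP against 617 in round spermatids. Lx9 at chr16:85562236-85563341, 1106 bases long and 11.6 kb from Cyyr1, was at 42504 and 956 FPKM. Lx7 at chr5:60094199-60094670 was at 37652 and 507 FPKM. On the FPKM + 1 scale used for ratios, these 3 were 77.6-fold, 44.4-fold and 74.1-fold above round spermatids. L1M4 at chr12:55234263-55234800 was at 28167 and 687 FPKM. Lx3A at chr18:26404236-26404304 was at 27821 and 332.5 FPKM. L1_Mur1 at chr6:130720216-130720288 was at 22741 and 367 FPKM. In all, 9 of these 10 were listed in both tables and 6 were under 100 bases.

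Of the 10 highest L1 values in round spermatids, 5 were listed in MVH IP. At 100 FPKM or more, 81 of 256 elements in round spermatids and 703 of 2118 in MVH IP were in both tables. Over all levels the shared fractions of L1 were 22.4% in round spermatids and 9.01% in MVH IP. For all listed elements they were 25.5% and 12.8% in that order. The shared fraction of all listed elements at 100 FPKM or more is not given here. The counts at that level are thus not read as a trait of L1. The lists of 10 are too short to compare the tables. L1MA8 at chr10:26426397-26426547 had 2750 FPKM in the sorted cells and 2096 after MVH IP, a 1.31-fold difference, and Lx9 at chr12:107785582-107785615 had 1192 in the sorted cells and 157 after MVH IP. The 5 listed for round spermatids alone began with Lx8 at chr17:33569158-33569221, at 1784 FPKM, inside an assembled transcript and 0.622 kb from Actl9, an actin-like gene listed at 18.3 FPKM in round spermatids. Then came 2 L1M2 elements of chromosome X, at chrX:151937512-151938160 with 1740 FPKM and at chrX:103739879-103740110 with 1694 FPKM. Lx8 at chr1:176094961-176095604 was at 1474 FPKM, and Lx2A1 at chr10:48681721-48683519 was at 1023 FPKM, its place shared with an L1_Mm at 29.7 FPKM.

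The 1501 elements in both tables were higher in MVH IP as a group, by an amount close to that of other elements. Their medians were 85.4 FPKM in MVH IP against 11.8 in round spermatids. As log2 of (FPKM + 1) in MVH IP over (FPKM + 1) in round spermatids, the median ratio was 2.53, or 5.79-fold, with quartiles at 0.98 and 4.05. At 2-fold or more, 1121 of 1501 were higher (74.7%) and 62 lower (4.13%), against 71.7% higher and 7.32% lower of all 12057 elements in both tables. Relative to the median of all these elements, 2.43, the L1 median was 0.11. On that centred scale 496 L1 elements were higher and 474 lower (33.0% and 31.6%), against 33.5% and 34.2% of all. The L1 shares thus lay near the background, and the shift toward MVH IP was present over all shared elements of these separately scaled tables. All shared elements include HAL1-3A_ME, which supplied 1747 of the 12057 and 365 of the 883 that were at least 2-fold lower. Genes gave a similar shift, with 75.4% of 3855 shared genes higher and 0.545% lower and a median of 1.85.

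**Figure D3:**
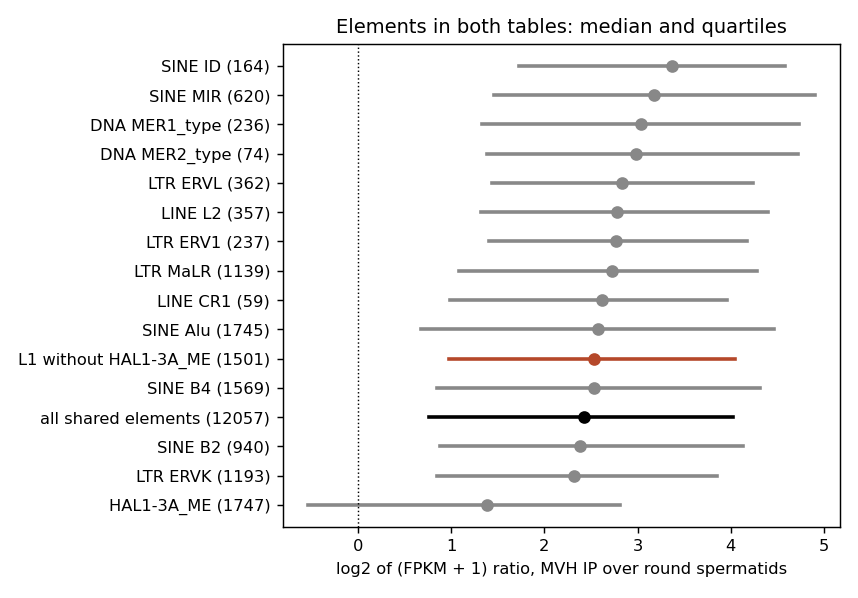
For each kind of element with at least 50 members in both tables, the dot is the median log2 ratio of (FPKM + 1), MVH IP over round spermatids, and the bar runs from the first to the third quartile over elements, with the number of elements in brackets. L1 without HAL1-3A_ME, at 2.53, sits beside all shared elements at 2.43, while HAL1-3A_ME lies lower at 1.38.

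HAL1-3A_ME, the L1 repeat left out by the rule, differed in these respects: 1747 of its elements were in both tables, or 91.1% of those listed for MVH IP and 70.8% of those for round spermatids, against 9.01% and 22.4% for the other L1 elements and 12.8% and 25.5% for all listed elements. Its median ratio was 1.38, with 969 higher and 365 lower. Of the remaining HAL1 names 97 elements were in both tables, 24.3% of those in MVH IP and 39.3% of those in round spermatids. HAL1-2a_MD supplied 85 of the 97, with shared fractions of 41.1% and 52.1%. The other HAL1 names had lower fractions than the rodent lineage: 7.21% and 20% for HAL1, 5.97% and 10% for MusHAL1, and none for HAL1b. The shared fractions were 4.69% and 18.6% for the mouse lineage, 9.49% and 22.4% for the rodent lineage, and 8.78% and 21.3% for the older mammalian names.

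Ratios by name group lay close together. The medians were 2.80 for 93 mouse-lineage elements (66 higher, 10 lower), 2.55 for 833 of the rodent lineage (621 and 36), 2.42 for 464 older mammalian elements (345 and 14), 2.65 for 97 HAL1 elements (77 and 2) and 3.13 for 14 of other names (12 and 0). Among the 6 most numerous names, the medians ran from 2.17 for Lx9 to 2.70 for Lx8. Elements in both tables stood higher in MVH IP than those listed there alone, at medians of 85.4 and 13.7 FPKM, and 703 of the 2118 MVH IP elements at 100 FPKM or more were in both. In round spermatids the medians were 11.8 FPKM for shared elements and 10.6 for those listed there alone, and 81 of the 256 at 100 FPKM or more were shared. The same medians and counts over all listed elements are not given here, so those of L1 are not read as a trait of L1. The rank correlation of the 1501 pairs was 0.35, against 0.50 for all shared elements, HAL1-3A_ME among them. Both are descriptions across elements that share libraries and lengths.

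**Figure D4:**
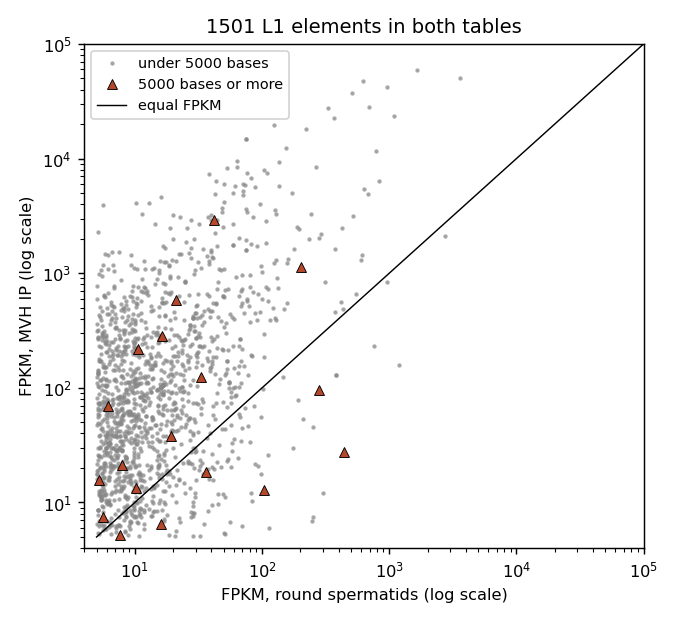
Each point is 1 of the 1501 L1 elements in both tables, with its FPKM in round spermatids on the horizontal axis and in MVH IP on the vertical axis, both logarithmic. Most points lie above the line of equal FPKM, and of the 18 elements of 5000 bases or more (triangles) 9 lie at least 2-fold above it and 4 at least 2-fold below it on the scale of FPKM + 1.

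At the ends of the ratio scale stood single elements. The largest ratio was that of Lx9 at chr3:24993727-24993998, at 3914 FPKM in MVH IP against 5.59 in round spermatids, a log2 ratio of 9.22. L1MB8 at chr8:9114182-9114245 was at 2291 and 5.11 FPKM, and L1M4b at chr10:128087928-128088217, 4.88 kb from Ikzf4, at 4078 and 10.3 FPKM. L1MC5 at chr9:121981720-121982132 was at 4076 and 12.9 FPKM, 44.3 kb from Snrk, a kinase gene at 134 and 9.26 FPKM, and another listed element has the same place. Lx9 at chr5:133999105-133999201 was at 4659 and 16.1 FPKM. All 5 lay between 5.11 and 16.1 FPKM in round spermatids, near the floor.

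The lowest ratios included both mouse-lineage and older elements. L1_Mm at chr13:70027311-70029466, 2156 bases long, was at 6.92 FPKM in MVH IP against 247 in round spermatids, 31.3-fold lower. L1_Mur2 at chr16:12730917-12731002 was at 7.44 and 250.1 FPKM. Lx9 at chr9:114072247-114072329, inside an assembled transcript, was at 12.1 and 303 FPKM, and L1ME1 at chr12:74534354-74534653 at 5.98 and 114 FPKM. L1Md_A at chr13:61686789-61692206 had 27.7 FPKM after MVH IP and 441 in the sorted cells (log2 ratio -3.94), and was the highest mouse-lineage element in round spermatids. In MVH IP the highest of that lineage was L1_Mm at chr11:38948950-38949622, at 7442 FPKM against 109 in round spermatids.

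Only near full-length elements could encode both proteins, but the length of a place, which can exceed its element, does not show which ones could. Places of 5000 bases or more numbered 222 in MVH IP and 84 in round spermatids, at medians of 12.1 and 9.85 FPKM. Of them, 130 (58.6%) and 38 (45.2%) were of the mouse lineage. The rodent lineage held 62 and 30, and the older mammalian names 6 and 7. HAL1 names, which lack ORF2, held 4 and 5, and other names 20 and 4. The highest in MVH IP was Lx3A at chr11:10104985-10111031, at 2891 FPKM against 42.2 in round spermatids. L1ME5 at chr1:16131034-16137510 was at 1137 and 203 FPKM. L1Md_F2 at chr1:166153654-166160745, 3248 bases from F5, the gene of a clotting factor, was at 827 FPKM and listed for MVH IP alone. In round spermatids L1Md_A on chromosome 13 led, followed by L1Md_F3 at chr2:90229418-90236161, at 282 FPKM against 95.5 in MVH IP.

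Of these long places 18 were in both tables, with a median log2 ratio of 1.12 (9 higher, 4 lower), against 2.55 for the 1483 shorter ones. All shared elements of 5000 bases or more, 63 of any kind, had a median of 3.04 (49 higher, 7 lower). The 4 lower ones were L1Md_A on chromosomes 13 and 14, L1Md_F3 on chromosome 2 and Lx9 at chr12:53676566-53683230, at 6.55 and 16.0 FPKM. The 10 mouse-lineage places over 5000 bases had a median of 0.35, with 4 higher and 3 lower, against 2.92 for 29 of over 1000 to 5000 bases (24 higher, 4 lower) and 2.53 for 54 of up to 1000 bases (38 and 3), so the class medians had no steady order with length. These counts are small, have no error, and were looked at after the values were seen.

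The listed elements of the 3 families known to hold active copies were counted by name. How reads that fit several copies were assigned is unknown, so these are counts of listed elements only. L1Md_A had 109 listed elements in MVH IP and 19 in round spermatids, L1Md_T 153 and 24, and L1Md_Gf 7 and 4. Of all shared L1 elements, 4.13% were lower and 74.7% higher in MVH IP by 2-fold or more. Of the 7 L1Md_A elements in both tables, 3 were lower and 4 higher by that measure. The lower ones were the chromosome 13 copy above, a 6047-base copy at chr14:89730552-89736598 with 12.8 and 104 FPKM, and a 53-base piece at chr11:71113655-71113707 with 27.9 and 58.1 FPKM. The highest 2 lie on unplaced Y sequence, 116 bases long at 5240 and 71.1 FPKM, and 2194 bases long at 2932 and 39.8 FPKM. Their values stood in the same proportion to each other in MVH IP and in round spermatids, with log2 ratios of 6.18 and 6.17. Whether these 2 are independent measurements was not tested. All 8 shared L1Md_T elements were higher in value in MVH IP, 7 of them by 2-fold or more, as at chr14:55876714-55880727 with 210.0 and 9.56 FPKM. The 2 shared L1Md_Gf elements were at 334 and 7.08 FPKM (chr12:89381329-89384969) and at 272 and 7.70 FPKM (chr4:63963960-63964018). The difference among the families was not tested.

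Length here is that of the deposited place, which can exceed the element. Where both tables list an element of the same name in overlapping places, all 1501 places were identical. Of 472 overlaps with the lysate table, 282 matched and 189 were longer in MVH IP. The longest, L1Md_T at chr3:6297411-6315728, spans 18318 bases at 7.20 FPKM. L1_Mur2 at chr12:70028788-70046851 spans 18064 bases at 6.07 FPKM, and L1_Mm at chr3:3415698-3431842 spans 16145 at 5.81, a place it shares with an LTR element. These spans are longer than a complete L1, and 281 L1 elements in MVH IP and 84 in round spermatids had a place that another listed element also carries.

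On the sex chromosomes, chromosome X held 1084 L1 elements in MVH IP (6.50%) and 372 in round spermatids (5.54%), above its share of all listed elements (4.47% and 3.49%). Chromosome Y with its unplaced sequence held 125 and 19 L1 elements, at medians of 10.7 and 9.35 FPKM. That was 0.750% of L1 against 0.661% of all listed elements in MVH IP, and 0.283% against 0.769% in round spermatids. These elements were led by L1_Mur1 and Lx in MVH IP (29 and 27 elements) and by L1_Mm in round spermatids (7 elements). Sets of copies carried 1 value. On chromosome X, 7 Lx9 elements of 277 bases between 26599634 and 30062224 were all at 301 FPKM in MVH IP, and 6 of 91 bases between 7902649 and 8449347 were all at 218 FPKM. On chromosome 17, 3 L1M3a elements of 95 bases were all at 403 FPKM in MVH IP and all at 28.9 in round spermatids. In all, 406 elements in MVH IP and 450 in round spermatids equalled another in name, length and FPKM. These counts also hold low values that recur at one length. For example, 3 Lx7 elements of 100 bases on different chromosomes were at 16.3 FPKM in round spermatids, a value that 26 elements of any kind had. No source used here says how reads that fit several copies were assigned, so copies of 1 set are not independent measurements.

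The highest elements of the smaller groups were HAL1-2a_MD at chr6:65612422-65612854, at 11689 FPKM in MVH IP against 781 in round spermatids, and HAL1-2a_MD at chr10:120568549-120568569, at 844 FPKM in round spermatids alone. L1VL2 at chr1:112182625-112184426 was at 1342 FPKM in MVH IP alone. L1VL1 at chr8:18027916-18030900 was at 845 and 310.4 FPKM. L1P5 at chr12:21930824-21930938 was at 92.4 FPKM in MVH IP alone, and L1P5 at chr7:28467466-28467568, inside C030039L03Rik, at 28.5 FPKM in round spermatids alone. L1VL1, at 2985 bases, was the longest of these 6.

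The lysate table lists 5565 L1 elements. At an identical place it lists 282 of those in MVH IP (1.69%), 188 of those in round spermatids (2.80%) and 102 of those in both. This match leaves out overlaps with other ends: of 472 same-named overlaps with MVH IP, 189 were longer in MVH IP. Shares and medians of all listed elements found in lysate are not given here, so those of L1 are not read as a trait of L1. Elements also listed in lysate had higher medians, 27.1 against 14.9 FPKM in MVH IP and 13.0 against 10.8 in round spermatids. Among the elements named above these include Lx9 at chr1:66139377-66139406, L1_Mur2 at chr16:12730917-12731002 and Lx9 at chr9:114072247-114072329.

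The genes that silence L1 were looked up in the separate gene tables, from a list of 34 piRNA pathway, methylation and chromatin genes. MVH IP listed 18 and round spermatids 14, with 12 in both. Of all genes, MVH IP listed 8056 and round spermatids 4956, with 3855 in both. Genes listed for 1 group alone were thus common, and those below are not read as a trait of the silencing genes. Of the 12 silencing genes in both, 9 were higher in MVH IP by 2-fold or more and 0 lower, against 75.4% and 0.545% of all shared genes. Their median log2 ratio was 1.94 against 1.85. Ddx4, the gene of MVH itself, was at 249.9 and 119 FPKM, and Tdrd7, a Tudor protein of germ granules, at 878 and 217. Hells, a chromatin remodeller needed for DNA methylation, was at 219 and 8.44 FPKM. Mov10l1, the helicase that feeds precursors into piRNA production, was at 77.9 and 7.47 FPKM, and Piwil1, the gene of the Piwi protein MIWI, at 36.9 and 5.01. Tex15, a germ cell factor of piRNA-directed methylation, was at 159 and 26.8 FPKM, and Gtsf1, a Piwi partner, at 444 and 121. Mael, a piRNA pathway protein, was at 276 and 249 FPKM, Trim28, a corepressor of retroelements, at 50.2 and 43.4, and Hsp90aa1, a chaperone of Piwi loading, at 626 and 637. Listed for MVH IP alone were Piwil2 at 40.2 FPKM, Tdrkh at 29.4, Pld6 at 30.6, Asz1 at 17.5, Samhd1 at 10.3 and Fkbp6 at 28.2. Uhrf1, which maintains DNA methylation, and Ehmt2 were listed for round spermatids alone, at 36.2 and 37.3 FPKM. Listed in neither table were Piwil4, Tdrd1, Tdrd5, Tdrd6, Mov10, Henmt1, Tex19.1, Dnmt1, Dnmt3a, Dnmt3l, Morc1, Setdb1, Adar and Zc3hav1.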

How the data were processed

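RNA-seq libraries of mouse testis, 14 in 9 groups, were deposited. The authors pooled the 3 MVH IP libraries into 1 value per element, and likewise the 2 round spermatid libraries, so no test could be made. Per the submitters' processing notes, TopHat and Cuffdiff were used on mm9. Versions, strand and the handling of reads with several matches were not given in the sources used here. Deposited FPKM values came from the element and gene tables, per the file headers. The authors' lysate element table names FPKM in its header, but 27.6% of its values are whole, the lowest is 21.0 and their rank correlation with length is -0.01, so these deposited values were treated as a score and used only for which elements are listed. Of per-sample columns, 1 with small RNA was left out.

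Rows with the same name and place were reduced to the highest value (69 and 26 dropped, 0 of them equal in value). Starts counted from 0 were shifted to 1. Ratios used a pseudocount of 1 and a 2-fold threshold, and folds on this log2(FPKM + 1) scale are too small for low elements. The joint table gave 21905 gene spans, 4922 assembled transcripts and 197 piRNA clusters. Python 3.11.15 and pandas 2.3.3 were used. The code of the ratio counts was run on simulated data with known changes. That run checked the code only, since it held neither the separate scaling nor the unlisted elements of the deposited data.

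Elements named were the 10 highest in each table, the 5 highest and 5 lowest ratios, the 3 longest and the highest of each name group. Repeat names were the 6 with most elements. Long elements, the 3 active families, elements inside genes and copies at 1 value were added after their values were seen. The elements and lists were chosen with earlier results of these data known. Alternatives were another floor, length minimum, pseudocount, centring, overlap rule and duplicate handling. No element sequence is printed, since no mm9 genome was used here.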

Additional observations from a re-analysis of the deposited data

How the results depend on the processing

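With values pooled by the authors, no replicate could be left out. No paired analysis was possible because each group has 1 pooled value per element. A floor of 10 FPKM removes elements by construction, leaving 10888 listed in MVH IP, 3620 in round spermatids, 814 shared, 10074 in MVH IP only and 2806 in round spermatids only; a minimum of 200 bases leaves 9680, 2255, 629, 9051 and 1626. L1 then made up 16.6% and 13.2% of elements with the floor and 26.3% and 23.1% with the length minimum. Of 24 counts by name group under these settings, 20 moved by 1.5 times or more and 4 did not. Keeping duplicate rows or counting overlap as shared moved no count by 1.5 times.

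The median ratio was positive under every alternative run: 2.64 with a pseudocount of 0.1, 2.60 with the floor, 2.34 with the length minimum and 0.11 when centred. The counts at least 2-fold higher and lower were 496 and 474 when centred, 613 and 34 with the floor, and 467 and 28 with the length minimum. Chosen after seeing the data, leaving out values that recur at one length gave a median of 2.68 over 1082 elements, with 858 higher and 34 lower. Spans of the separate gene tables, which hold fewer genes, put 0.240% and 0.253% of elements in a gene, also chosen after seeing the data. The depth behind each value is unknown, which limits what short elements can show.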
